A study of Mus musculus with 64 samples.

Results

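The amino acid transporter families studied here were the genes whose symbols start with Slc1a, Slc3a, Slc6a, Slc7a, Slc36a, Slc38a or Slc43a followed by a number. Of 39017 genes in the count table, 61 matched, and 28 of these reached a mean of at least 0.5 CPM (counts scaled to library size) in at least 1 of 16 groups of libraries. These 28 members comprised 3 of 7 matching Slc1 genes, 2 of 2 Slc3 genes, 4 of 19 Slc6 genes, 8 of 15 Slc7 genes, 2 of 4 Slc36 genes, 7 of 11 Slc38 genes and 2 of 3 Slc43 genes. Of the genes left out, 22 had at least 1 count and 11 had none in any library. The members nearest the minimum were Slc3a1, with a highest group mean of 0.863 CPM, and Slc38a4, with 1.08 CPM, and the nearest genes below it were Slc1a2, with 0.425 CPM, and Slc1a1, with 0.422 CPM.

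RNA was sequenced from 8 mouse pancreatic tumor lines on a mixed C57BL/6 background, each either grown alone (mono-culture) or taken from 48 h of coculture with fibroblasts and sorted on the green fluorescent protein that only the tumor cells carried. Clones E, H, K, M, N, T and V came from pancreatic tumor tissue of KPC mice, which carry a heterozygous Trp53 R172H allele and Pdx1-Cre. The study describes the clones as the progeny of a single tumor in one passage and names tumors in its methods, so comparisons over lines are over clones and not over tumors or animals. The study placed E, H and V in group 1 and K, M, N and T in group 2 by their metabolism, and the KPC1 line, whose genotype is not given in the sources used here, is in neither group. Each line and culture had 4 libraries, 64 in all, each clone is a single isolate standing for itself, and sorting is described for the cocultures only.

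Amino acid transporters of the Slc families move amino acids across the plasma membrane or out of lysosomes. Some, such as Slc7a5 and Slc7a11, work as light chains bound to the heavy chain Slc3a2 (CD98), which brings them to the cell surface. Exchangers such as Slc1a5 trade one neutral amino acid for another, sodium-coupled carriers such as Slc38a1 and Slc38a2 load the cell with glutamine and other small neutral amino acids, and several of these genes are known targets of ATF4, the transcription factor that is translated when amino acids run short. Pancreatic tumors grow in nutrient-poor tissue and are known for their use of glutamine and cystine.

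Library totals lay between 11178721 and 21333683 counts, with a median of 15648010, so that 3 counts over the 4 libraries of a line and culture, taken as the floor of detection, were at most 0.0565 CPM. Every one of the 64 libraries correlated best with another library of its own line and culture. Nothing in the labels says that the 4 libraries of a group came from separate cultures, and p-values within a line measure only the spread between them. Sample titles carry a running number from 1 to 64 and a further number whose count starts over after 43, and what this marks is not given. All mono-culture libraries of K were numbered above 43 and all those of E, V and N up to 43, so mono-culture differences between K and these 3 lines go along with the numbering. Between the cultures of a line, the libraries numbered up to 43 were 4 in mono-culture and 2 in coculture in V. They were 4 and 3 in N, 1 and 3 in KPC1 and 0 and 2 in K. Coculture responses in these lines thus go partly along with the numbering. With the numbering as a covariate, 26 of 26 members still differed among lines in mono-culture. In K, 5 members were then called in coculture in place of 6. The lines expressed the epithelial markers Krt8, Krt18, Krt19 and Sox9 at a line mean of at least 85.3 CPM in mono-culture, and Tspan8 at 61.4 CPM or more, whereas Epcam did not exceed 0.370 CPM and Cldn4 did not exceed 0.841 CPM in any line. Cdh1 ran from 0.998 to 304 CPM, Krt7 from 0.854 to 11.4 CPM and Muc1 from 1.38 to 5.06 CPM among the lines. Of 8 epithelial markers tested, Sox9 rose in coculture (log2 fold change 0.27) and Krt8, Krt19 and Tspan8 fell (-0.51, -0.70 and -0.82, adjusted p of 0.0809, 0.00240 and 0.00651 in edgeR's quasi-likelihood test), and the part of this shift in the transporter results was not tested. Fibroblast markers moved with coculture: 15 of 19 tested markers rose and 0 fell (edgeR's quasi-likelihood test with Benjamini-Hochberg adjustment, adjusted p under 0.1). In the same comparison, which also gave the epithelial marker counts, 27.2% of all genes tested were higher and 27.4% lower. The sum of Dcn, Fap, Postn and Thy1, picked from the list after their values were seen, was 0 to 0.201 CPM per library in mono-culture and 14.6 to 155 CPM in coculture, Thy1 and Lum having no count in any mono-culture library. The sum of all 20 fibroblast markers was 6014 to 20677 CPM in mono-culture and 6444 to 20389 CPM in coculture, since Vim, Fn1 and Sparc were high in the tumor lines themselves. In these bulk libraries, a smaller share of cells of a type and less RNA per cell cannot be told apart.

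The members covered a wide range of levels in mono-culture, from transporters among the abundant transcripts of these lines to genes at the edge of detection. On the scale of reads divided by gene length and library size (RPKM), 13 members had a mean over the 8 lines of at least 10, 7 lay between 1 and 10 and 8 lay below 1. Slc38a2, the sodium-coupled neutral amino acid transporter SNAT2, had the highest mean level at 119 RPKM. It was followed by Slc3a2 at 90.0 RPKM, by Slc6a6, the taurine transporter, at 67.6 RPKM and by Slc1a4, a carrier of alanine, serine and cysteine, at 26.9 RPKM. The order of neighbors was not the same in every line: Slc3a2 ran from 35.6 ± 8.37 RPKM in V to 163 ± 29.7 RPKM in N (SD, n = 4), and in V its level lay below that of Slc6a6, which was 60.04 ± 6.20 RPKM. The leading members of the other families were Slc7a5, the large neutral amino acid transporter LAT1, at 18.8 RPKM, Slc36a1, the proton-coupled carrier of lysosomes, at 6.12 RPKM, and Slc43a2, a facilitative carrier of branched-chain and aromatic amino acids, at 1.26 RPKM. At the other end, Slc1a3, the glial glutamate and aspartate transporter, had 5 counts and Slc6a17, a vesicular carrier of neurons, had 20 counts over all 32 mono-culture libraries.

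**Figure D1:**
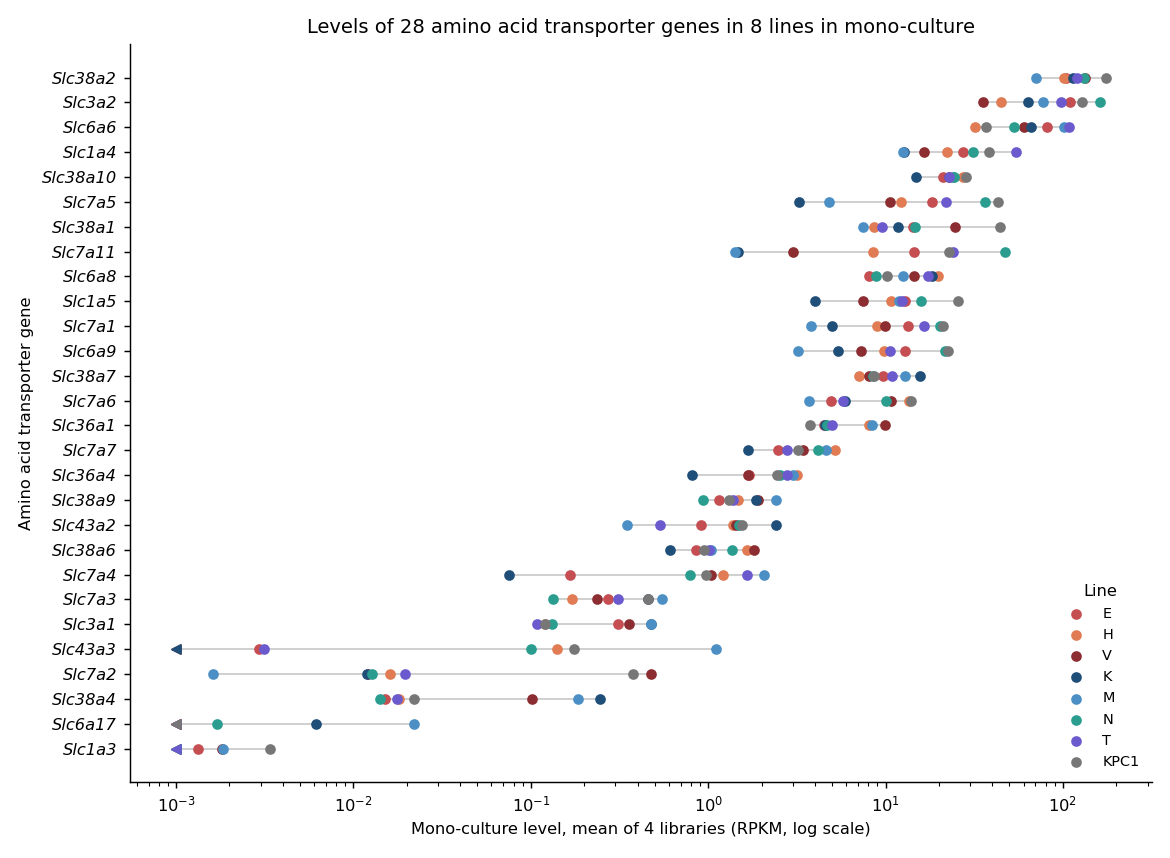
Mono-culture level of each member (RPKM, logarithmic axis) in each of 8 lines, every circle being the mean of 4 libraries of a line; triangles pointing left stand for means below the left end of the axis. Slc38a2 leads with a mean of 119 RPKM over the lines. Slc43a3 and Slc7a2, low in most lines, spread most between lines, and Slc7a11, Slc7a4, Slc38a4 and Slc7a5 also spread widely.

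The lines differed in every member that could be tested. The means of the 8 lines in mono-culture were unequal for 26 of 26 members in edgeR's quasi-likelihood test with Benjamini-Hochberg adjustment, beside 96.9% of all genes tested, so that a difference among lines was the rule rather than a property of transporters. Slc7a11, the cystine and glutamate exchanger xCT, had the widest span of the abundant members. Its mean was 666 ± 277 CPM in N, 357 ± 145 CPM in T, 333 ± 117 CPM in KPC1 and 209 ± 94.2 CPM in E (SD, n = 4). It was 130 ± 36.2 CPM in H, 43.9 ± 18.9 CPM in V, 23.1 ± 4.004 CPM in K and 21.1 ± 9.96 CPM in M, which is 31.6-fold below N. The libraries of one line also spread widely: those of N held 597, 335, 1001 and 732 CPM, and overlapped with those of T and KPC1, as those of K overlapped with those of M. Every library of N lay above every library of E, H, V, K and M.

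Slc7a5 followed with a 12.5-fold span, from 13.6 ± 5.21 CPM in K and 19.2 ± 7.74 CPM in M to 137 ± 30.6 CPM in N and 169 ± 53.7 CPM in KPC1 (SD, n = 4). The low level of Slc7a5 in K and M thus went with a low level of Slc7a11 in the same lines. Slc7a4, a relative of the cationic amino acid transporters whose own substrate is not established, was highest in M, with 8.50 ± 0.157 CPM, and lowest in K, with 0.360 ± 0.241 CPM. Slc43a2 was highest in K, at 27.4 ± 5.27 CPM, and lowest in M, at 3.66 ± 0.778 CPM, a 7.47-fold span. Slc6a9, the glycine transporter GlyT1, ran from 10.7 ± 1.75 CPM in M to 71.9 ± 20.3 CPM in KPC1. Slc7a2, an inducible transporter of cationic amino acids, was present in V at 4.54 ± 0.458 CPM and in KPC1 at 3.43 ± 1.17 CPM, and had between 1 and 13 counts over the 4 mono-culture libraries of each other line. Slc43a3, a carrier of purine nucleobases rather than amino acids, was present in M at 5.43 ± 1.62 CPM and lay under 1 CPM in the other 7 lines. Slc38a4 had its highest mean in K, at 1.08 CPM, and its lowest in N, at 0.0556 CPM. 

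The balance of heavy and light chains also differed between lines. The light chains of Slc3a2 among the members were Slc7a5, Slc7a6, Slc7a7 and Slc7a11, whose summed level per length was 0.188 ± 0.0196 of that of Slc3a2 in M and 0.194 ± 0.0230 in K, but 0.790 ± 0.0787 in V and 0.884 ± 0.0827 in H (SD, n = 4, mono-culture RPKM). Slc7a11 made up 46.8% ± 7.64 of this light-chain sum in N and 42.8% ± 6.33 in T. In E its share was 34.6% ± 5.89, in KPC1 26.8% ± 4.49, and in H 21.3% ± 4.35. In K, V and M the share was 11.96% ± 1.66, 10.47% ± 3.11 and 9.34% ± 2.91, lower than in the other lines. In coculture the share was 35.9% ± 3.11 in N, 28.4% ± 3.57 in T, 34.4% ± 2.23 in E and 26.4% ± 2.91 in KPC1. It was 23.7% ± 2.56 in H, 14.6% ± 1.78 in V, 11.95% ± 1.61 in K and 7.86% ± 0.723 in M, so that the mean was lower than alone in N and T by more than the SD of either group, and the other 6 lines differed less or were higher. These shares are given as a description, with no test.

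To ask which transporters changed when tumor cells grew with fibroblasts, the 8 coculture sums were compared with the 8 mono-culture sums, line by line. Sorting is described for the cocultures only, so coculture and sorting cannot be told apart in any of these comparisons. Of 27 members tested, 19 changed, 14 being higher and 5 lower in coculture, beside 54.6% of all genes tested, 27.2% higher and 27.4% lower (edgeR's quasi-likelihood test, Benjamini-Hochberg adjusted p under 0.1). Slc1a3 and Slc6a17 are members only through their coculture levels, their highest mono-culture group means being 0.0289 and 0.233 CPM, so the choice of members fixed the direction of their change. Without these 2, 12 of 25 members were higher and 5 lower, with a median log2 fold change of 0.21, and that of all genes was 0.00. Of the 14 higher members, 11 had a mean of at least 1 CPM in mono-culture and 3, Slc1a3, Slc6a17 and Slc43a3, did not. The coculture libraries of every line also carried Dcn, Fap, Postn and Thy1, at the summed 14.6 to 155 CPM given above, and their part in these rises was not tested. With each line left out in turn, 13 to 14 members were higher and 4 to 6 lower. These counts include Slc1a3 and Slc6a17, whose direction was fixed, and no such counts were made without these 2. No gene of the 28 had all 4 coculture libraries above all 4 mono-culture libraries in all 8 lines (0 members, 0.96% of all genes tested), nor all below (0 members, 0.193% of all genes tested), Slc43a3 coming nearest with 7 lines above.

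**Figure D2:**
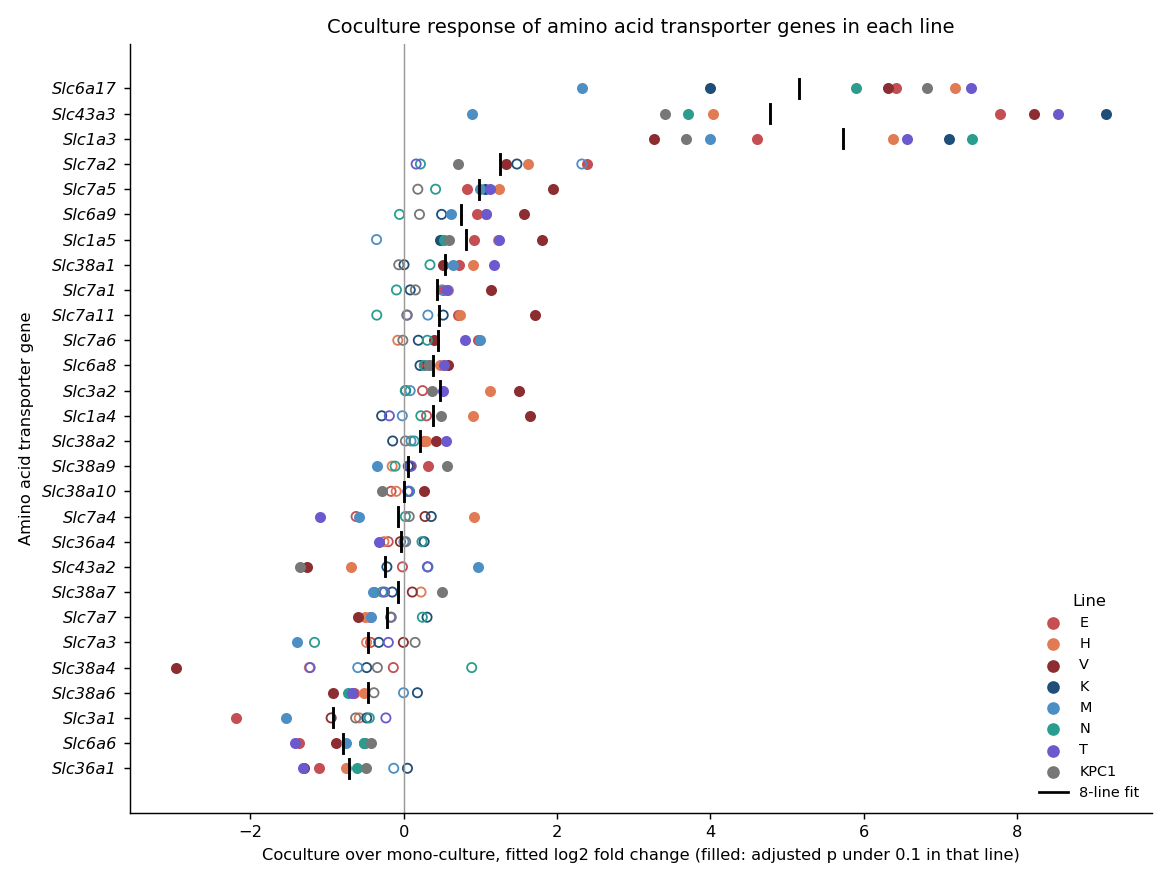
Fitted log2 fold change of coculture over mono-culture for each member, a circle for each of 8 lines (filled where the adjusted p in that line was under 0.1) and a black bar for the fit over 8 lines. Slc6a6 lies left of 0 in all 8 lines. The fitted values of the 3 top genes depend on mono-culture counts at or near 0 in most lines. Slc1a3 and Slc6a17 are members only through their coculture levels, which fixed the direction of their change.

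Within single lines, where 4 coculture libraries were compared with 4 mono-culture libraries, the number of changed members varied. In the group 1 clones the calls were 14 higher and 6 lower of 28 in E (32.1% and 29.2% of all genes), 15 and 5 in H (21.4% and 22.6%) and 16 and 6 in V (30% and 31.5%). In the group 2 clones they were 5 and 1 in K (12.5% and 8.02%), 9 and 7 in M (21.6% and 17.3%), 4 and 3 in N (20% and 17.4%) and 12 and 5 in T (31.5% and 30.7%). KPC1 had 10 higher and 4 lower members (20.1% and 19% of all genes). Slc1a3 and Slc6a17, whose direction the choice of members fixed, are among the higher members in every line. Without them, the counts of 26 members were 12 and 6 in E, 13 and 5 in H and 14 and 6 in V. In K they were 3 and 1, in M 7 and 7 and in N 2 and 3. T had 10 and 5 and KPC1 8 and 4. The counts that follow include both genes. In N, where libraries of the same replicate number deviated together, a fit with the replicate number as a block called 8 higher and 4 lower members (22.9% and 19.7% of all genes), adding Slc38a1, Slc6a8, Slc7a5 and Slc7a6 as higher and Slc38a7 as lower to the 7 called without it. The counts in E, M and KPC1 depended on single replicate numbers: the 20 members called in E became 13 without replicate 4, the 16 in M became 9 without replicate 3 or replicate 4, and the 14 in KPC1 became 9 without replicate 3. The size of the response differed among lines for 22 of 28 members, beside 71.3% of all genes tested.

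Slc7a5, which imports leucine and other large neutral amino acids in exchange for glutamine, rose most among the members that were expressed throughout. Its mono-culture libraries ran from 7.37 to 225 CPM with a median of 50.4 CPM, and its coculture libraries from 15.9 to 253 CPM with a median of 139 CPM. The ranges overlapped across lines, but in E, H, V and T every coculture library lay above every mono-culture library. The log2 fold change over 8 lines was 0.98 (SE 0.17, adjusted p = 0.00238 in edgeR's quasi-likelihood test), a 1.97-fold rise, and the rise was called in 6 lines, all but N and KPC1, and in N under the replicate block (log2 fold change 0.41, SE 0.19, adjusted p = 0.0874). In V the 4 mono-culture libraries held 46.8, 36.7, 47.7 and 31.96 CPM and the 4 coculture libraries 115, 196, 172.4 and 144 CPM. In KPC1 the log2 fold change was 0.18 (SE 0.26), and a link between the response and the mono-culture level was not tested.

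Slc3a2, the heavy chain, ran from 100 to 685 CPM in mono-culture (median 326 CPM) and from 224 to 663 CPM in coculture (median 440 CPM). Its log2 fold change was 0.48 (SE 0.17, adjusted p = 0.0422 in edgeR's quasi-likelihood test), and the response differed strongly among lines (adjusted p = 7.24e-10). V rose from 132 ± 30.6 to 373 ± 36.4 CPM and H from 176 ± 19.1 to 384 ± 49.6 CPM (SD, n = 4). In K and N, by contrast, the means were 254 and 258 CPM and 588 and 596 CPM in mono-culture and coculture. V and H, the lines with the lowest mono-culture levels of Slc3a2, showed the largest rises of the 8 lines, and in coculture the 8 means lay between 258 and 618 CPM. The mono-culture level is part of the fold change, and a link between them was not tested.

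Slc7a11 ran from 10.8 to 1001 CPM in mono-culture (median 148 CPM) and from 21.7 to 683 CPM in coculture (median 250 CPM). Its log2 fold change over 8 lines was 0.46 (SE 0.19, adjusted p = 0.0681 in edgeR's quasi-likelihood test), and the call was lost without line E, H or K, with adjusted p of 0.132, 0.127 and 0.107, and without replicate 4, at 0.126. The rise was called in the 3 group 1 clones, E, H and V. In V, where no coculture library overlapped the mono-culture ones, the mean rose from 43.9 ± 18.9 to 144 ± 39.4 CPM. In N the mean was 666 ± 277 CPM alone and 522 ± 120 CPM in coculture, with overlapping libraries and a log2 fold change of -0.35 (SE 0.32) that was not called. 

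**Figure D3:**
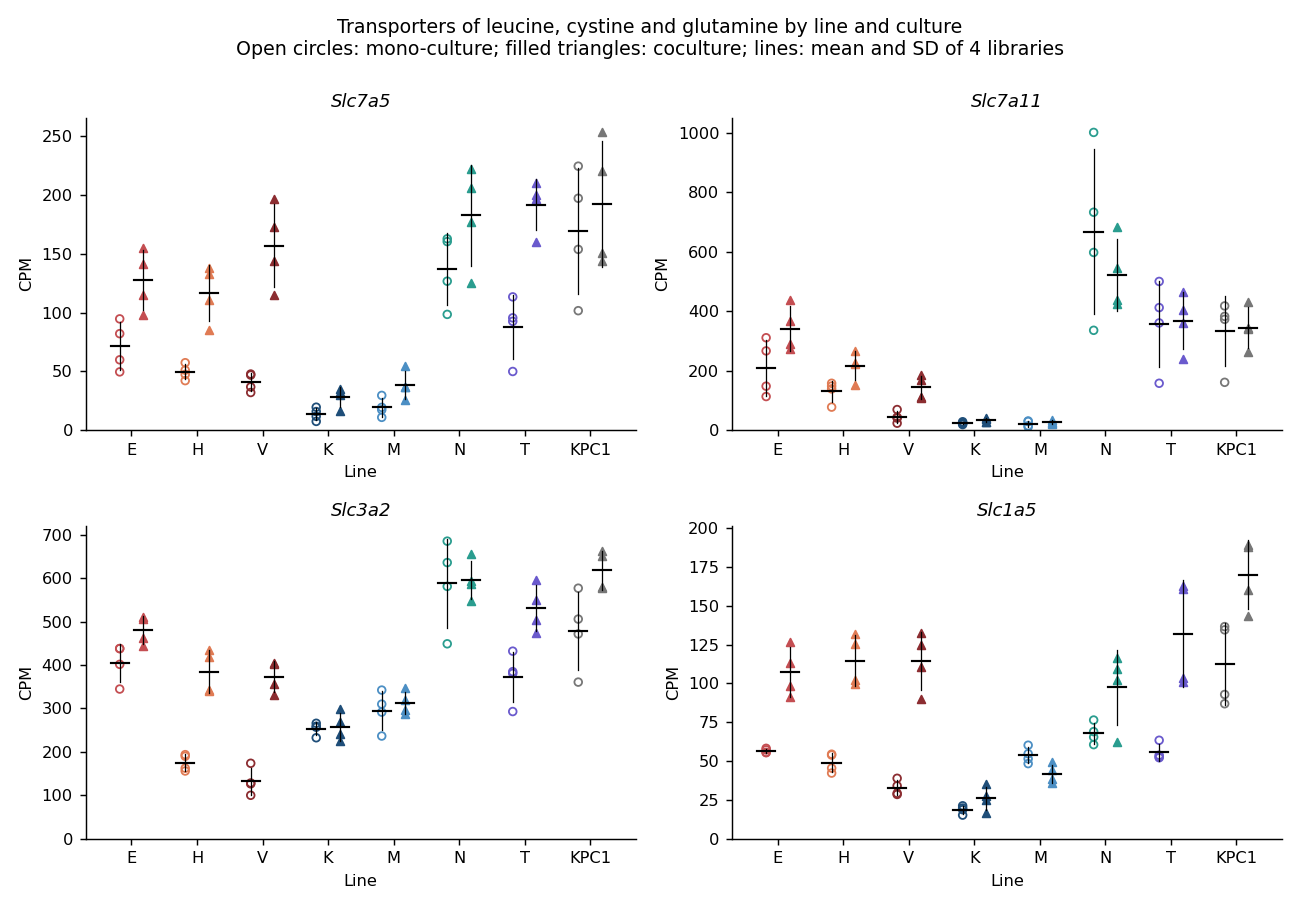
CPM of Slc7a5, Slc7a11, Slc3a2 and Slc1a5 in every library by line, with open circles for mono-culture, filled triangles for coculture, and horizontal and vertical lines for the mean and SD of 4 libraries. V shows the clearest separation for all 4 genes, its Slc7a11 mean going from 43.9 to 144 CPM.

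Slc7a11 and Slc1a4 are known ATF4 targets, and their promoters are shown because they hold the composite site of ATF4 and C/EBP factors known as the amino acid response element, searched here as TGATGCAA on both strands. Among 32851 RefSeq promoter windows on GRCm38.p6, each from 250 bases before to 50 bases after a gene start, 294 (0.895%) held the motif. Windows were found for 19 of the 28 members, and those of 3 members held it, namely Slc7a11, Slc1a4 and Slc7a7. The looser spelling TGATGNAA, which every TGATGCAA match also fits, was in 3.97% of all windows and in those of the same 3 members. The Slc7a11 stretch is chr3:50443614-50443733 on the minus strand, directly upstream of the start of the gene, with matches on opposite strands whose first bases lie at -66 and -47 from the start. The Slc1a4 stretch is chr11:20332704-20332823 on the minus strand, with a match whose first base lies at -4. Both are written 5′ to 3′ on the strand of the gene, and capitals mark the motif, which reads TTGCATCA where it lies on the other strand.
Slc7a11: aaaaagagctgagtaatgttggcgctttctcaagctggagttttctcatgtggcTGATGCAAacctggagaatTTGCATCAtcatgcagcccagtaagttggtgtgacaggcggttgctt
Slc1a4: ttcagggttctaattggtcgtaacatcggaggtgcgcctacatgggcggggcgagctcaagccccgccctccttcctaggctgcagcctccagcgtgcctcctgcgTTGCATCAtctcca
A match describes the letters of these windows only. Of the 3 members with it, Slc7a11 was called higher in coculture, and Slc1a4 and Slc7a7 were not called.

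Of the glutamine and neutral amino acid carriers described next, Slc1a5, Slc38a1 and Slc38a2 rose over 8 lines and Slc1a4 was not called. Slc1a5, the exchanger ASCT2, ran from 15.2 to 137 CPM in mono-culture (median 54.2 CPM) and from 16.6 to 189 CPM in coculture (median 103 CPM), with a log2 fold change of 0.81 (SE 0.20, adjusted p = 0.00997 in edgeR's quasi-likelihood test). It was called higher in 7 lines, and every coculture library lay above every mono-culture library in E, H, V, T and KPC1. In M, the exception, the libraries held 54.7, 51.5, 60.2 and 48.4 CPM alone and 38.7, 36.04, 49.1 and 44.04 CPM in coculture, a log2 fold change of -0.36 (SE 0.17) that was not called. With the replicate number as a block, Slc1a5 was called lower in M (SE 0.15, adjusted p = 0.0661 in edgeR's quasi-likelihood test). Slc1a4 ran from 42.4 to 286 CPM in mono-culture and from 40.9 to 255 CPM in coculture, with medians of 100 and 167 CPM, and was not called over 8 lines (log2 fold change 0.38, SE 0.20, adjusted p = 0.141 in edgeR's quasi-likelihood test), although its adjusted p was 0.0942 in DESeq2, 0.0830 without line K, 0.0959 without replicate 1 and 0.0385 within the libraries numbered up to 43 in their titles. Within lines, Slc1a4 was called higher in H, V and KPC1, and in V its mean went from 67.8 ± 25.6 to 212 ± 39.01 CPM (SD, n = 4). 

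Slc38a1, the sodium-coupled glutamine carrier SNAT1, had a median of 99.8 CPM in mono-culture (54.6 to 463 CPM) and of 173 CPM in coculture (93.9 to 426 CPM). It rose by a log2 fold change of 0.53 (SE 0.13, adjusted p = 0.00971 in edgeR's quasi-likelihood test) and was called in E, H, V, M and T, with no overlap of the libraries in any of these 5 lines. KPC1, which had the highest level of Slc38a1 in mono-culture at 383 ± 81.8 CPM, was at 366 ± 60.3 CPM in coculture. Slc38a2 had a median of 577 CPM in mono-culture (328 to 928 CPM) and of 657 CPM in coculture (346 to 1009 CPM), with a log2 fold change of 0.21 (SE 0.08, adjusted p = 0.0518). Its call was lost without line V or T, at adjusted p of 0.119 and 0.125, and without replicate 4, at 0.103. 

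Carriers of cationic amino acids did not move together. Slc7a1, the general arginine and lysine carrier, went from a median of 124 CPM (39.1 to 323 CPM) to 207 CPM (51.5 to 353 CPM), a log2 fold change of 0.43 (SE 0.12, adjusted p = 0.0164 in edgeR's quasi-likelihood test), and was called in E, H, V and T. Slc7a6, a light chain that exchanges cationic for neutral amino acids, went from a median of 35.3 CPM (15.9 to 74.8 CPM) to 53.8 CPM (29.5 to 77.2 CPM), a log2 fold change of 0.44 (SE 0.13, adjusted p = 0.0209), and was called in E, V, M and T. Its relative Slc7a7, in which the same exchange is known, was called lower in E, H, V and M and not over 8 lines (log2 fold change -0.22, SE 0.12, adjusted p = 0.158). Slc7a2 was called higher over 8 lines (log2 fold change 1.25, SE 0.27, adjusted p = 0.00540), but only V and KPC1 had more than 15 counts of it over their 4 mono-culture libraries. In V its libraries held 5.02, 4.72, 4.49 and 3.94 CPM alone and 7.49, 7.97, 17.1 and 13.3 CPM in coculture, without overlap.

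Slc7a3, a cationic amino acid carrier of lower level, moved the other way. It went from a median of 1.18 CPM (0.245 to 4.07 CPM) to 0.791 CPM (0.0700 to 3.21 CPM), a log2 fold change of -0.47 (SE 0.19, adjusted p = 0.0670 in edgeR's quasi-likelihood test). Single lines decided this call, which was lost without E, H, M or N, with adjusted p of 0.109, 0.124, 0.139 and 0.140, and without replicate 1, 3 or 4, with 0.136, 0.106 and 0.155. The only line with a call of its own was M. Slc3a1, the heavy chain rBAT of cystine and dibasic amino acid transport, was also lower, with 238 counts over 32 mono-culture libraries and 116 over 32 coculture libraries (log2 fold change -0.92, SE 0.23, adjusted p = 0.0106). Of the exonic bases of Slc3a1, 26.5% are shared with Prepl on the other strand, and whether reads were counted by strand is not given in the sources used here.

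Among the sodium- and chloride-coupled Slc6 carriers, the glycine and creatine transporters rose and the taurine transporter fell. Slc6a9 went from a median of 31.2 CPM (8.39 to 97.2 CPM) to 64.4 CPM (12.5 to 96.5 CPM), with a log2 fold change of 0.74 (SE 0.16, adjusted p = 0.00588 in edgeR's quasi-likelihood test), and was called in E, H, V, M and T without overlap of libraries. Of its exonic bases, 30.2% are shared with genes on the other strand. Slc6a8, the creatine transporter, went from 75.9 CPM (35.2 to 128 CPM) to 103 CPM (40.6 to 169 CPM), with a log2 fold change of 0.38 (SE 0.06, adjusted p = 0.00179). The rises of Slc6a8 lay between 0.21 and 0.58 on the log2 scale in the 8 lines, and a difference among lines was not called (adjusted p = 0.448), unlike for Slc6a9 (adjusted p = 0.000464).

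Slc6a6, which takes up the osmolyte taurine, was the only member called lower in all 8 lines. Its libraries ran from 276 to 1133 CPM in mono-culture (median 567 CPM) and from 167 to 630 CPM in coculture (median 301 CPM), a log2 fold change of -0.79 (SE 0.13, adjusted p = 0.00217 in edgeR's quasi-likelihood test). In T the mean went from 963 ± 115 to 360 ± 76.3 CPM and in E from 706 ± 102 to 274 ± 65.7 CPM (SD, n = 4). The smallest change was in KPC1, from 317 ± 21.4 to 236 ± 55.4 CPM. In every line except N and KPC1, all 4 coculture libraries lay below all 4 mono-culture libraries, and the size of the fall differed among lines (adjusted p = 8.06e-05).

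Slc36a1, which exports small amino acids from lysosomes with protons, fell from a median of 30.1 CPM (18.5 to 76.2 CPM) to 21.6 CPM (9.01 to 55.6 CPM), a log2 fold change of -0.71 (SE 0.16, adjusted p = 0.00706 in edgeR's quasi-likelihood test). The fall was called in E, H, V, N, T and KPC1, in each of which the libraries did not overlap, and in V the mean went from 59.1 ± 12.05 to 24.04 ± 2.61 CPM (SD, n = 4). In K and M the log2 fold changes were 0.05 (SE 0.16) and -0.13 (SE 0.15). Its relative Slc36a4 was not called over 8 lines (log2 fold change -0.04, SE 0.09, adjusted p = 0.740). Slc38a6, a little-studied member of the Slc38 family, fell from a median of 8.50 CPM (4.86 to 18.4 CPM) to 6.35 CPM (3.23 to 12.1 CPM), a log2 fold change of -0.47 (SE 0.13, adjusted p = 0.0180), with calls in E, H, V, N and T.

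**Figure D4:**
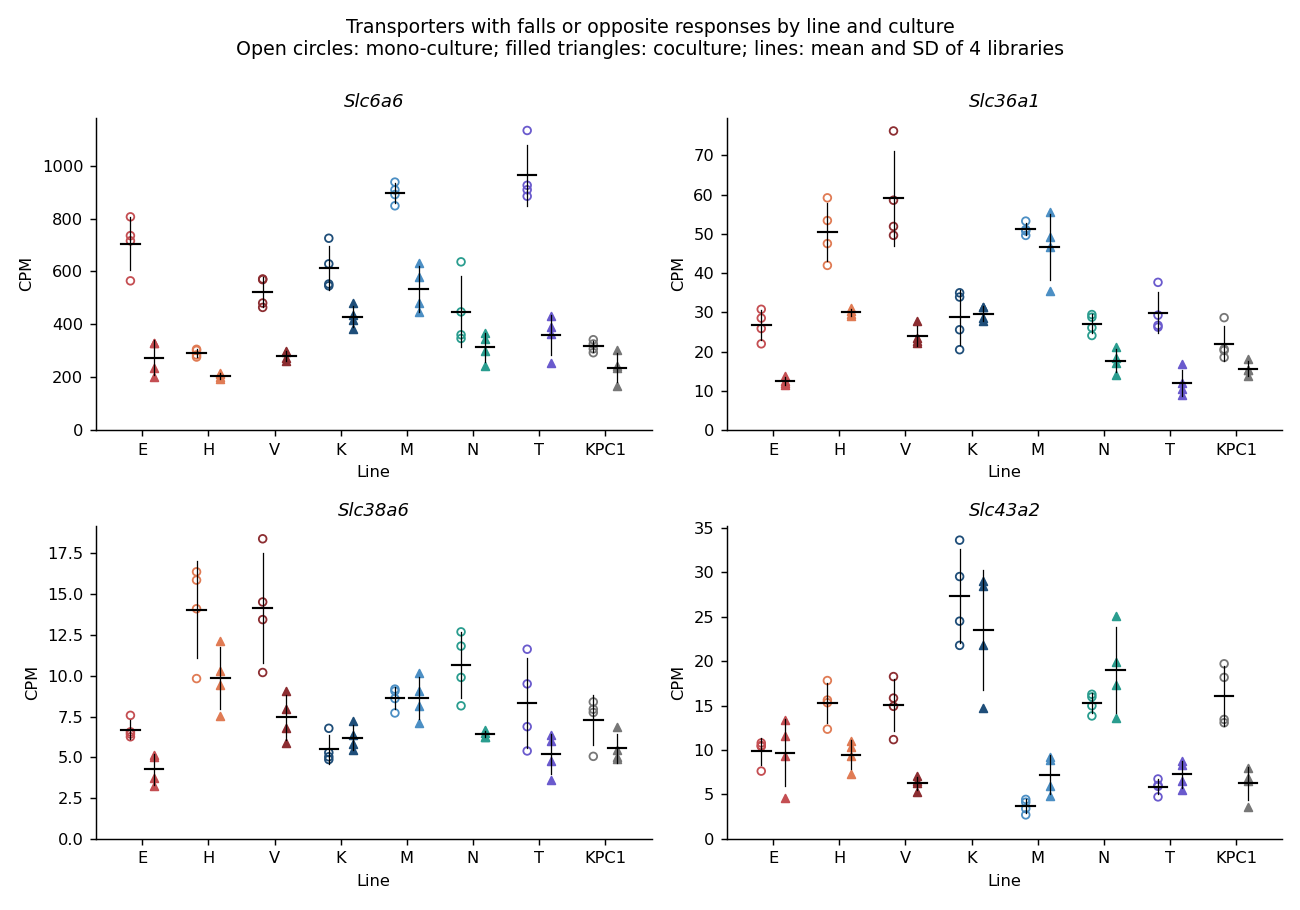
CPM of Slc6a6, Slc36a1, Slc38a6 and Slc43a2 in every library by line, with open circles for mono-culture, filled triangles for coculture, and horizontal and vertical lines for the mean and SD of 4 libraries. Slc6a6 is lower in coculture in every line, whereas Slc43a2 is higher in M and lower in H, V and KPC1.

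Slc43a3, Slc1a3 and Slc6a17 were at or near 0 in most mono-cultures and had counts in the coculture of every line. Slc43a3 had 472 counts over 32 mono-culture libraries, 347 of them in M, and 3796 over 32 coculture libraries. In every line but M, all coculture libraries lay above all mono-culture libraries; in M they held 4.65, 4.05, 7.75 and 5.29 CPM alone and 5.52, 8.10, 14.5 and 11.9 CPM in coculture. Slc1a3 had 5 counts in mono-culture and 336 in coculture, with a line mean of 0.204 to 1.39 CPM in coculture. Slc6a17 had 20 counts in mono-culture, 15 of them in M, and 532 in coculture, with a line mean of 0.617 to 1.62 CPM. Slc43a3 was called higher over 8 lines (edgeR's quasi-likelihood test, adjusted p = 0.00302) and in each of the 8 lines alone. Slc1a3 and Slc6a17 reached the 0.5 CPM minimum in coculture groups only, which fixed the direction of their change. Their rise is given as a description, and their calls, which the counts above include, are not read as a result. The coculture library of a line with the lowest sum of Dcn, Fap, Postn and Thy1 also had the lowest value of Slc43a3 in 6 of 8 lines, of Slc1a3 in 7 and of Slc6a17 in 7, and the library with the highest sum had the highest value in 5, 4 and 7 lines. In K the 4 coculture libraries had 26.3, 32.1, 155 and 150 CPM of these fibroblast markers and 1.67, 1.25, 6.48 and 8.79 CPM of Slc43a3. In V they had 14.6, 48.7, 59.3 and 104 CPM of the markers and 2.81, 5.47, 8.14 and 11.2 CPM of Slc43a3. The order was looser in KPC1, where marker sums of 66.9, 28.4, 53.8 and 94.2 CPM went with 13.3, 5.47, 7.93 and 8.49 CPM of Slc43a3, and in E, where sums of 32.1, 51.6, 79.8 and 79.3 CPM went with 0.724, 0.274, 0.349 and 0.788 CPM of Slc1a3. The lowest coculture value of Slc6a17, 0.0669 CPM, was in the V library with 14.6 CPM of the markers, and its highest, 2.98 CPM, in the N library with 147 CPM. The agreement of the lowest and highest libraries with the marker sum was counted for these 3 genes only, with no share of all genes beside it. The 4 markers were picked after their values were seen. The part of fibroblast RNA in these 3 rises was not tested.

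**Figure D5:**
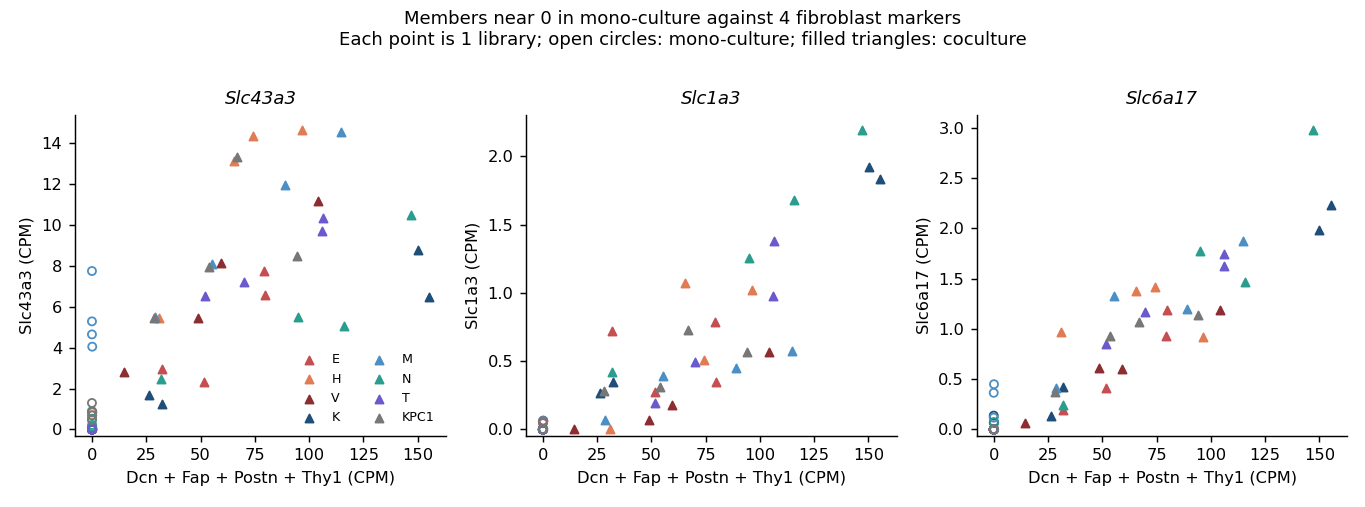
CPM of Slc43a3, Slc1a3 and Slc6a17 in each of 64 libraries against the summed CPM of the fibroblast markers Dcn, Fap, Postn and Thy1, with open circles for mono-culture, filled triangles for coculture, and a color for each line. Mono-culture libraries lie at 0 to 0.201 CPM on the horizontal axis and coculture libraries at 14.6 to 155 CPM.

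In the fits without the replicate block, 5 of 28 members had calls in opposite directions in different lines. This share was near the 17.8% of all genes tested. Slc43a2 was called higher in M (log2 fold change 0.97, SE 0.25) and lower in H, V and KPC1 (-0.69, -1.27 and -1.35), and the difference among the 8 lines had an adjusted p of 1.34e-07 in edgeR's quasi-likelihood test. Its 4 libraries of M held 4.12, 4.43, 2.69 and 3.40 CPM alone and 8.83, 9.26, 5.98 and 4.78 CPM in coculture, and its 4 libraries of V held 18.3, 14.9, 15.8 and 11.2 CPM alone and 6.49, 7.03, 5.24 and 6.23 CPM in coculture. Neither pair of groups overlapped. Slc7a4 was called higher in H, from 5.12 ± 0.5003 to 9.63 ± 3.09 CPM, and lower in M and T, in T from 6.78 ± 0.760 to 3.20 ± 1.39 CPM (SD, n = 4). Of its exonic bases, 13.3% are shared with P2rx6 on the other strand, and the shares with other-strand genes for Slc43a2, Slc7a7, Slc7a2 and Slc38a10 are 9.18%, 7.0%, 6.95% and 5.72%. The other 3 belong to the Slc38 family and moved less. Slc38a7, a lysosomal carrier of glutamine and asparagine, had calls of 0.50 in KPC1 and of -0.39 and -0.40 in E and M. Slc38a9, the lysosomal arginine sensor upstream of mTORC1, had calls of 0.31 and 0.56 in E and KPC1 and of -0.35 in M, and Slc38a10 had calls of 0.26 in V and -0.29 in KPC1, all as log2 fold changes.

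The study set the group 1 clones against the group 2 clones, and the same contrast was made in mono-culture with 3 clones against 4. None of 26 members tested was called, beside 0% of 14829 genes in edgeR's quasi-likelihood test. A test that called no gene cannot show that the members are alike in both groups. At an unadjusted p under 0.05 the counts were 1 member and 766 of all genes, and with DESeq2 they were 0 members and 117 genes past the adjusted threshold. The member with the smallest p was Slc7a2 (log2 fold change of group 1 over group 2 of 3.91, SE 1.41, adjusted p = 0.888), and its level came from V alone, E and H holding 7 and 10 counts. Slc38a1, Slc7a6 and Slc38a6 were the next members toward group 1, with log2 fold changes of 0.56, 0.63 and 0.50, and Slc38a7, Slc3a2, Slc7a3 and Slc6a6 the first toward group 2, with -0.54, -0.65, -0.72 and -0.51 and adjusted p of at least 0.888 in edgeR's quasi-likelihood test. Levels within a group were far apart: Slc3a2 was 405, 176 and 132 CPM in E, H and V and 254, 295, 588 and 373 CPM in K, M, N and T, so that the groups overlapped.

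The difference in coculture response between the groups was tested on the same 7 clones, and so shares its libraries with the comparisons above. It was called for 0 of 28 members, beside 0.00637% of all genes, with 5 members and 1196 genes at an unadjusted p under 0.05 in edgeR's quasi-likelihood test and 0 members and 187 genes called by DESeq2. The 5 members were Slc1a4, Slc7a11, Slc3a2 and Slc6a9, with responses higher in group 1 by 0.99, 0.88, 0.79 and 0.64 on the log2 scale (SE 0.30, 0.29, 0.29 and 0.27), and Slc43a2, lower in group 1 by a log2 difference of -0.99 (SE 0.37), the smallest of the 5 adjusted p being 0.636. The response of Slc7a5 differed by 0.41 (SE 0.28).

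Other genes of amino acid supply were followed as lists. Of the 9 members listed as known ATF4 targets, 7 rose and 1, Slc7a3, fell in coculture over the 8 lines. Of all genes tested, 27.2% were higher and 27.4% lower. The 9 had a median log2 fold change of 0.46. The calls of Slc7a11, Slc38a2 and Slc7a3 were lost without single lines or replicate numbers, as given above. Of 15 ATF4 response genes that are not transporters, 12 rose and 0 fell, with a median log2 fold change of 0.74, beside 27.2% of all genes higher. These included Asns, the asparagine synthetase, at 1.30 (adjusted p = 0.00126 in edgeR's quasi-likelihood test), Trib3, a pseudokinase of the stress response, at 1.48 (adjusted p = 0.00254), and Atf4 itself at 0.60 (adjusted p = 0.0122). Of 23 amino acid carriers outside the 7 families, 16 could be tested, of which 1 rose and 3 fell, beside 27.2% and 27.4% of all genes. Sfxn2 was higher, and the lysosomal cystine exporter Ctns (log2 fold change -0.81, adjusted p = 0.00485 in edgeR's quasi-likelihood test), Sfxn3 and Slc15a4 were lower. Of 28 genes of amino acid sensing by mTORC1, 9 rose and 7 fell, with a median log2 fold change of 0.09, near the 27.2% higher and 27.4% lower of all genes. Between the groups in mono-culture, 0 genes of each of these lists were called.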

How the data were processed

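RNA was sequenced from 64 polyadenylated-RNA libraries made with a strand-specific kit. The authors deposited whole-number read counts per gene without normalization, and RPKM values that they computed per gene from the same libraries. The submitters' processing notes name featureCounts, edgeR and mm10; the aligner, the annotation, tool versions and strand setting of the counting are not given in the sources used here. Samples were grouped by the line and culture in their titles and by the study's assignment of clones.

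CPM were computed from the counts with TMM scaling. Tests used edgeR 4.0.16 (R 4.3.3): genes were filtered with filterByExpr, fitted with glmQLFit and tested with glmQLFTest over all genes, and Benjamini-Hochberg adjusted p under 0.1 was called. Counts of the 4 libraries of a line and culture were summed for comparisons over lines (line as covariate) and between groups; comparisons within and among lines used single libraries. Replicate numbers were taken to pair the cultures of a line where all 4 same-numbered pairs had deviations correlated over 0.1, which held in N (0.230 to 0.291) and in no other line. The scripts were tested on simulated counts. DESeq2 1.42.0 and limma 3.58.1 on log2(RPKM + 1) served as alternatives. RPKM were used for levels between genes. Fold changes of genes near 0 depend on edgeR's prior count, so their counts are given. The SE of a log2 fold change was taken as its absolute value over the square root of the quasi-likelihood F statistic, and is not a fitted standard error.

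The members and gene lists were chosen with earlier results of these data known. Values are given for the up to 8 called members with the largest rise and fall in coculture, the 8 with the largest range among lines, the 4 in each direction with the smallest p between groups, the 4 with the smallest p for a difference in response among lines, 9 known ATF4 targets and the most abundant member of each family; the 5 members with opposite calls were added after their values were seen. Gene positions came from GENCODE M21 on GRCm38 and promoters from RefSeq on GRCm38.p6; members without a promoter window were Slc1a5, Slc38a1, Slc43a3, Slc6a6, Slc6a8, Slc7a2, Slc7a3, Slc7a4 and Slc7a5. Floors and counts cover counting error only. Pairs of libraries within a group, 96 in all, gave a chi-square per gene of 4.46 to 65.5, above sampling noise, so none was treated as a repeat of another. A further allele of the KPC mice is not reported here.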

Additional observations from a re-analysis of the deposited data

Results flagged for a closer look

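In groups of 4 libraries and of 8 line means, a highest or lowest value was listed where its gap to the nearest other value, as a share of the whole range, passed Dixon's 95% critical value; 7 of 335 groups passed, and chance gives about 1 in 20. The share was 0.534 for Slc38a1 in mono-culture, where KPC1 had 383 CPM and the other lines 66.0 to 214 CPM. It was 0.867 for the total of replicate 2 of KPC1 in coculture, 11178721 counts, the other totals of that group being 16016171 to 16755693. It was 0.843 for Slc1a4 in replicate 3 of K in mono-culture (62.4 CPM, others 52.04 to 53.7), 0.856 for Slc1a5 in replicate 1 of T in mono-culture (63.4 CPM, others 52.2 to 53.8) and 0.878 for Slc43a2 in replicate 4 of E in mono-culture (7.62 CPM, others 10.4 to 10.8). It was 0.833 for Slc6a6 in replicate 4 of T in mono-culture (1133 CPM, others 884 to 926) and 0.830 for Slc7a1 in replicate 4 of T in coculture (235 CPM, others 312 to 328).

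Coculture responses with opposite calls in different lines were listed for 5 of 28 members. This share was near the 17.8% of all genes tested that had such calls. Given here is the adjusted p of edgeR's quasi-likelihood test of unequal responses among the 8 lines. It was 1.34e-07 for Slc43a2, 0.000313 for Slc7a4, 0.000395 for Slc38a7, 0.0101 for Slc38a10 and 0.0152 for Slc38a9.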

How the results depend on the processing

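Over 8 lines, 15 to 20 members were called whichever replicate number or line was left out, 23 with all 64 libraries as replicates, and 19 within the libraries numbered up to 43 in their titles; 17 were called without the members that entered through coculture alone, a setting added after seeing the data. Between the groups, 0 members were called under every setting except with 28 libraries as replicates, which called 6 and takes libraries of a clone as independent clones. Within lines, leaving out a replicate number gave 13 to 17 members in E, 9 to 12 in M and 9 to 12 in KPC1. Of 32 same-numbered pairs, 24 correlated best with their own number, a hint from the data, and 18 had deviations correlated over 0.1. The 4 pairs of a line all did so only in N, where the replicate block called 12 members in place of 7. The block moved no other count by over 1.5 times. Single calls still moved under it, with 2 gained and 1 lost in E and likewise in M. In K 2 were gained, and in H, T and KPC1 1 each. Without each line in turn, the log2 fold change of Slc7a4 (-0.079 over 8 lines) ran from -0.22 to 0.075, the latter without line T, and was not called; the cause was not tested. Under the settings tried for single members, 370 values of the coculture response kept direction and call, 16 lost and 6 gained the call. Depth limited members near 0 counts.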
